A study of Mus musculus with 9 samples.

Results

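The insulin-like growth factor (IGF) genes examined here were the ligands Igf1 and Igf2, the receptors Igf1r and Igf2r, and the binding proteins Igfbp2 to Igfbp7. They were followed through every probe set that the platform annotation assigns to 1 of these 10 symbols alone. This gave 23 of the 22690 probe sets on the array, and each of the 10 genes had at least 1. The samples were 6 mouse alveolar rhabdomyosarcomas, a soft-tissue cancer with features of skeletal muscle, and 3 wild-type skeletal muscles. Total RNA of each was hybridised to 1 Affymetrix array. The labels used here give no tumour genotype, strain, age or muscle, and do not say whether the samples came from separate animals, so p-values measure only the spread between these samples. Values are MAS5 signals, a linear brightness in arbitrary units, after each array was scaled to the same trimmed mean. A signal ranks arrays for 1 probe set and does not compare 1 gene with another.

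IGF-I and IGF-II are secreted peptides that act through the receptor tyrosine kinase encoded by Igf1r, which signals through insulin receptor substrates to PI3 kinase and Akt. The product of Igf2r takes up IGF-II for degradation in lysosomes. The binding proteins hold IGFs in the extracellular space, limit or prolong their access to the receptor, and release them when cut by proteases. In muscle, IGF-I promotes growth and repair and IGF-II is made by differentiating myoblasts, and IGF2 is known to be abundant in human rhabdomyosarcoma.

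The arrays bear on all that follows. As deposited, muscle 1 and muscle 3 had trimmed means of 294.3 and 140.9, against 500.2 on the other 7 arrays, and were multiplied by 1.6995 and 3.5493. The median log2 difference of all probe sets, tumour minus muscle, was 0.11 after scaling and 0.75 without it, so directions without scaling are shifted upwards. The hybridisation control cre averaged 28634 on tumour 1 and 23093 on tumour 4, against 4560 to 11026 on the other arrays. The ratio of 3' to 5' Gapdh signal, a sign of RNA quality, was 1.93 to 9.39 on the tumours and 1.68, 57.17 and 33.0 on muscles 1, 2 and 3. The same ratio for Actb did not set muscles 2 and 3 apart. It was 3.35 to 6.78 on the tumours and 1.87, 4.06 and 4.35 on muscles 1, 2 and 3. Signals of 8 muscle fibre marker genes summed to 1462 to 73947 in the tumours, highest in tumour 1, and to 158776 to 221007 in the muscles, and 7 of the 8 were lower in tumours.

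Igfbp4 passed the test as higher in the tumours on 2 of 6 probe sets, and Igf1 as lower on 1 of 3. With the probe sets of each gene averaged, neither passed (limma adjusted p = 0.057 and 0.12). Igf2, both receptors and the other 5 binding proteins had no probe set that passed the test. Of the 23 probe sets 2 were called higher and 1 lower, where a call means that limma's adjusted p, corrected over the 22626 probe sets tested, was under 0.05. That is 13.0% of them, near the 15.4% of all probe sets called. Of all probe sets 7.88% were called higher in tumours and 7.53% lower. The tumours and muscles did not overlap for 3 of the 23, again 13.0%, against 19.8% of all probe sets. The median log2 difference of the 23 was 0.09, close to the 0.11 of all probe sets. Among the fits that left out 1 array, that without tumour 1 changed the count most, to 6 higher and 1 lower, and leaving out any of tumours 4 to 6 or any muscle left 1 higher. With 3 muscles, an exact permutation test of a single probe set cannot give a two-sided p below 0.0238.

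**Figure D1:**
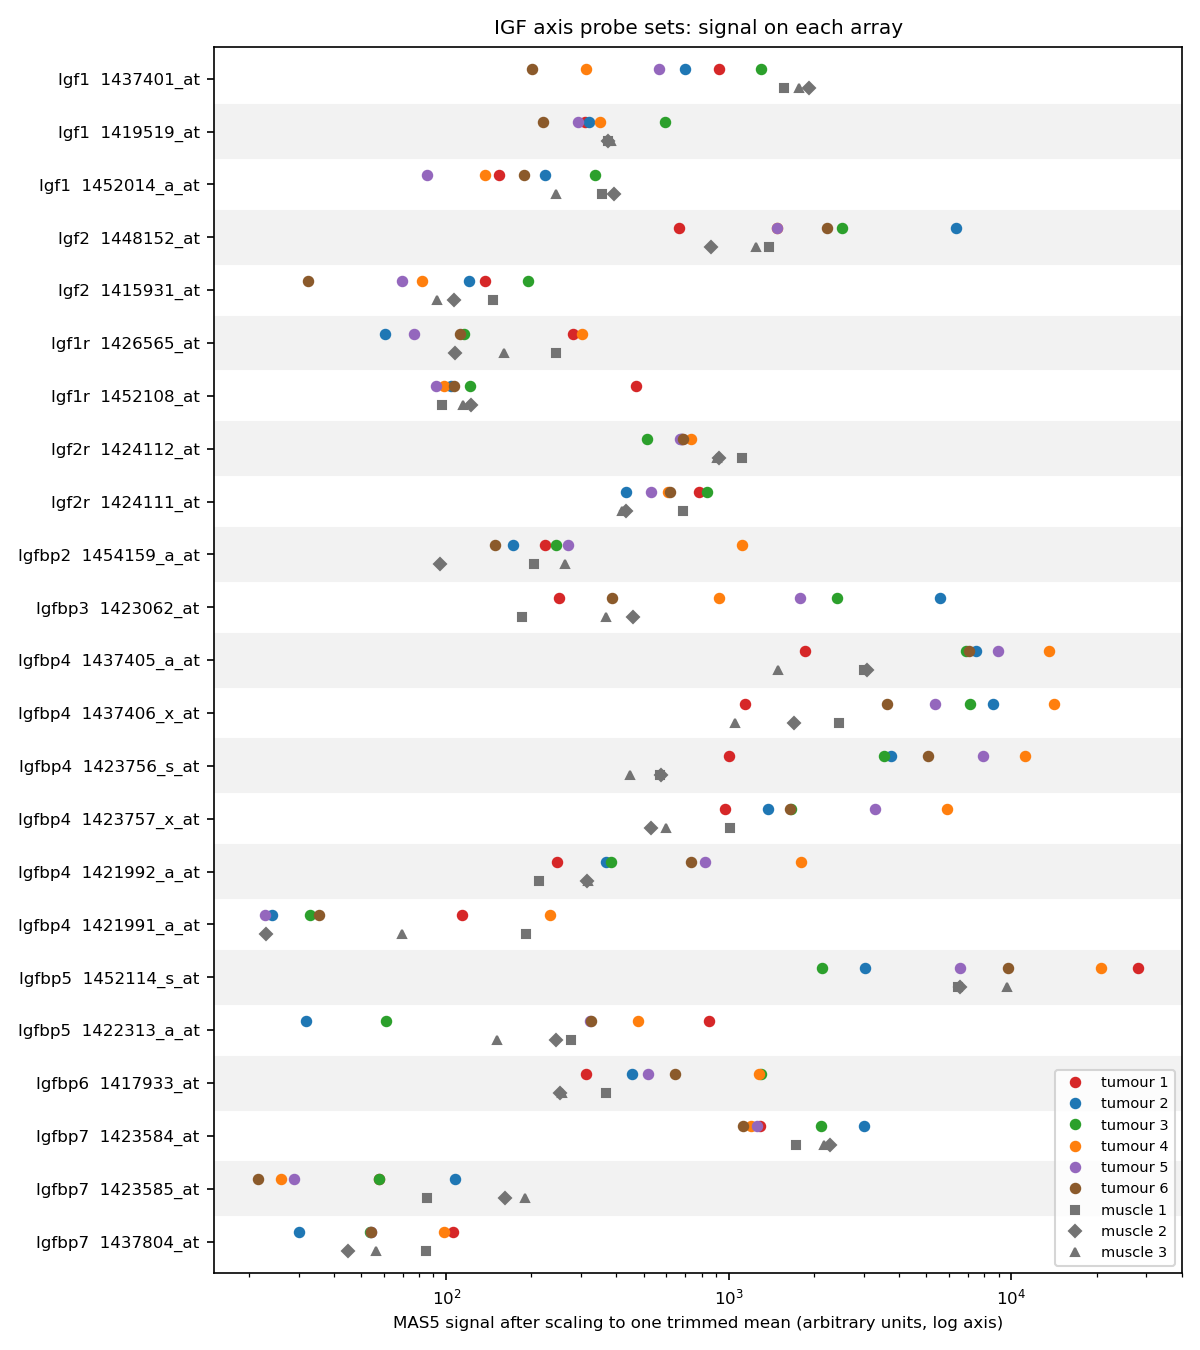
Scaled MAS5 signal (arbitrary units, log axis) of the 23 probe sets of the 10 IGF genes, with 1 coloured circle for each tumour above and grey symbols for the 3 muscles below in each row. On the brightest probe set of each of the 10 genes the 6 tumours spread more widely than the 3 muscles, most for Igfbp3 and Igfbp5. The groups are separate for Igf1 1437401_at, Igf2r 1424112_at and Igfbp4 1423756_s_at.

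**Figure D2:**
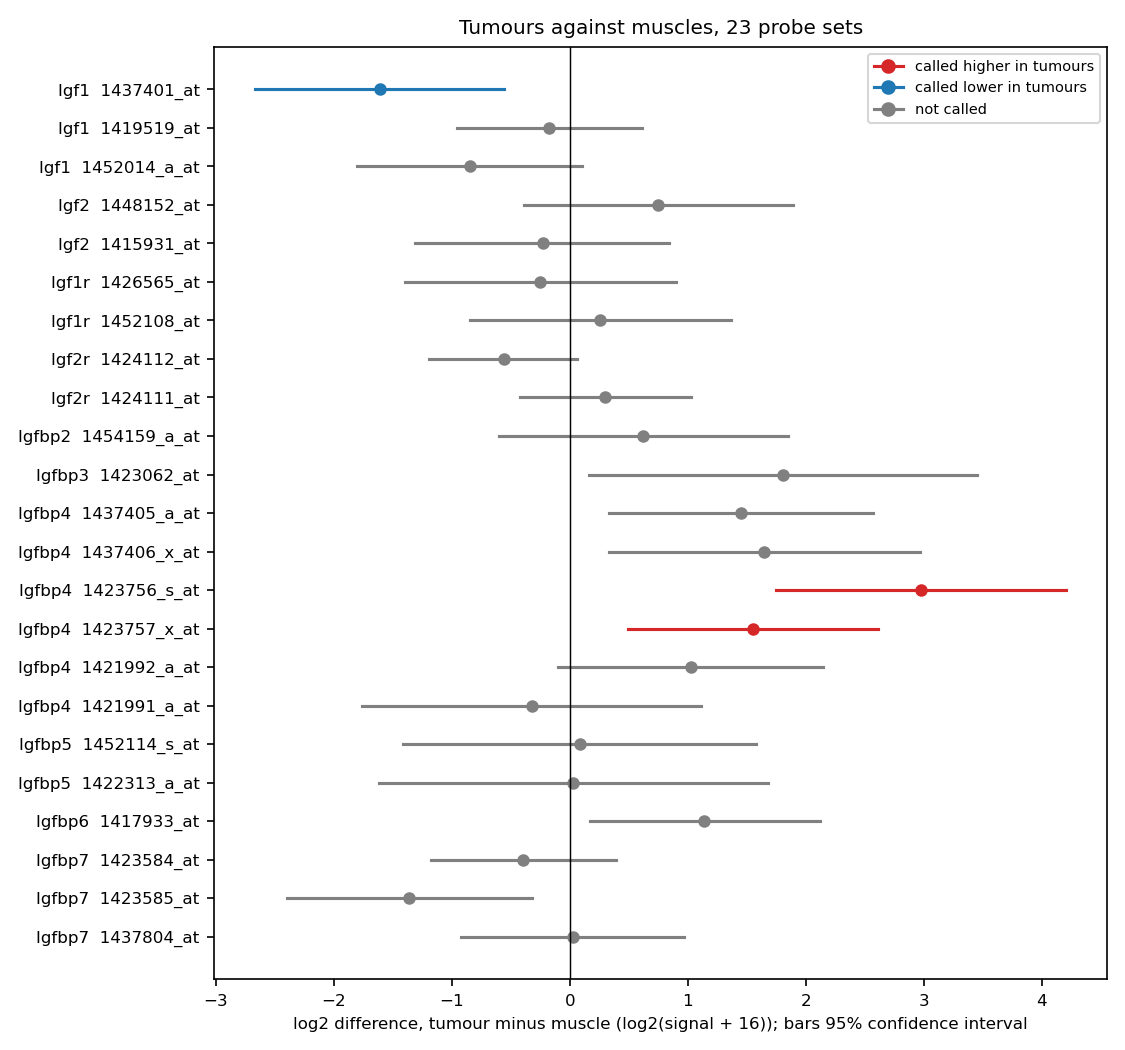
Log2 difference of tumours minus muscles on the scale of log2(signal + 16) for each probe set, with 95% confidence intervals from limma, coloured by the call at an adjusted p under 0.05. The 2 probe sets called higher belong to Igfbp4 and the 1 called lower to Igf1.

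The upstream sequences of 4 of these genes are printed because Igf1 and Igfbp4 held the called probe sets and Igfbp3 and Igfbp5 varied most between tumours among the binding proteins. All 10 genes matched the RefSeq promoter table of GRCm38.p6, and each sequence is the 250 bases before the annotated start on the gene's strand, 5' to 3'. Capitals mark 3 motifs, searched on both strands. They are the TATA box core TATANA, the GC box core GGGCGG, and the E-box CAGCTG, a kind bound by myogenic factors.
Igf1 chr10:87860861-87861110 strand plus: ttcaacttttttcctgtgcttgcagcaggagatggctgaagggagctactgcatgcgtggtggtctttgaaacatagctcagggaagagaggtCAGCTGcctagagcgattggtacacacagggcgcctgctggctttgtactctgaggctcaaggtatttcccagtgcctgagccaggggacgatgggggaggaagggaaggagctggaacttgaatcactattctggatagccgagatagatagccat
Igfbp4 chr11:99040994-99041243 strand plus: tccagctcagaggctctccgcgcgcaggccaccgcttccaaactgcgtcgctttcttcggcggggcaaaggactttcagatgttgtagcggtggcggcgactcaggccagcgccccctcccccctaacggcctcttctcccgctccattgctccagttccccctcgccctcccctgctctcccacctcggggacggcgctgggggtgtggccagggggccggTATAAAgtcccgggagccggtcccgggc
Igfbp3 chr11:7213924-7214173 strand minus: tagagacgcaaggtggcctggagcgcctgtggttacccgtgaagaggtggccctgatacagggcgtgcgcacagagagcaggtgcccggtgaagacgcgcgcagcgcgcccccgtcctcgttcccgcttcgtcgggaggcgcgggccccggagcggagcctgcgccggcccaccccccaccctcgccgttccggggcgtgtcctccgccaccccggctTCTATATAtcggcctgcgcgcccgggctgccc
Igfbp5 chr1:72874866-72875115 strand minus: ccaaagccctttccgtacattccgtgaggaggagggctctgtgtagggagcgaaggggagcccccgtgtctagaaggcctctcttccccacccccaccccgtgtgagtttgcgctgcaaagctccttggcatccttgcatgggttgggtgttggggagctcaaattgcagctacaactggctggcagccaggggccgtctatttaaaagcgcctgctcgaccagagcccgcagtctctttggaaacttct
Igfbp4 held 1 TATANA, with its first base at -28 from the start, and Igfbp3 held 3 overlapping matches from -32 to -30. Igf1 held 1 CAGCTG at -157, and Igfbp5 held none of the 3 motifs. Of 32851 promoter windows in the table, 22.6% held the TATA box core, 32.7% the GC box core and 13.0% the E-box. These matches describe the letters only, and the arrays do not tell from which start a transcript began.

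Igf1, the ligand of the IGF-I receptor, was lower in every tumour than in any muscle on its brightest probe set. Igf1 1437401_at had signals of 919, 697, 1303, 313, 564 and 200.3 in tumours 1 to 6, against 1563, 1919 and 1768 in muscles 1 to 3. Tumour 3 came nearest to the muscles and tumour 6 was the lowest, at 11.4% of the muscle mean. The log2 difference was -1.61 ± 0.49 (SE, n = 6 tumours and 3 muscles), a fold of 0.327, with a limma adjusted p of 0.039. The other probe sets of Igf1 were not called. Igf1 1452014_a_at gave 85 to 336 in tumours, median 171, against 244 to 391 in muscles (log2 difference -0.85 ± 0.44, limma adjusted p = 0.24), and 5 of the 6 tumours lay below every muscle. Igf1 1419519_at gave 220.2 to 596, median 314, in tumours against 373 to 384 in muscles (-0.18 ± 0.37, adjusted p = 0.83). All 3 probe sets were highest in tumour 3 among tumours. The Igf1 call was lost in 12 of 22 alternatives. These included the mean of the gene's probe sets (log2 difference -0.88, adjusted p = 0.12), quantile normalization (0.059), no intensity trend (0.056) and arrays without the scaling (-0.76, adjusted p = 0.34). It was also lost without tumour 4, 5 or 6 (0.072, 0.065 and 0.055) or without muscle 1, 2 or 3 (0.094, 0.14 and 0.14).

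Other cell types in the samples also differed between the groups. Of 8 macrophage markers 7 were higher in tumours, with summed signals of 8862 to 33374 against 2628 to 4081 in muscles. Of 4 adipocyte markers all 4 were lower in tumours, with sums of 163 to 1450 against 7940 to 10155 in muscles. Their part in the lower Igf1 signal was not tested, and fewer cells of a type cannot be told apart from less RNA per cell in such samples.

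Igf2, the fetal growth factor of the family, was above all 3 muscles in 5 of 6 tumours and below them in tumour 1. Igf2 1448152_at had signals of 666, 6350, 2518, 1483, 1485 and 2224 in tumours 1 to 6, against 1383, 867 and 1245 in muscles 1 to 3. Tumour 2 alone stood at 545% of the muscle mean, and tumour 1 at 57.1%. The difference was 0.75 ± 0.53 (log2 ± SE, 95% interval -0.39 to 1.89), with a limma adjusted p of 0.42 and an exact permutation p of 0.31. Only without the scaling of arrays, among the alternatives run, was it called (1.60, adjusted p = 0.045). The other probe set, Igf2 1415931_at, lay below the median of its array on all 9 arrays, with signals of 32 to 194 in tumours and 93 to 146 in muscles (-0.23 ± 0.50, adjusted p = 0.84). It did not repeat the order of the tumours, with tumour 3 the highest and tumour 6 the lowest.

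Neither receptor gene was called. Igf1r, the signalling receptor, gave low signals on both probe sets, with 1 and 3 of the 9 arrays above their medians. Igf1r 1426565_at had 280, 61, 115, 302, 77 and 112 in tumours 1 to 6, against 245, 108 and 160 in muscles 1 to 3, so that tumours 1 and 4 were above and tumours 2 and 5 below all muscles. Its difference was -0.25 ± 0.54 (limma adjusted p = 0.84). Igf1r 1452108_at had 92 to 121 in tumours 2 to 6 and 470 in tumour 1, against 96 to 122 in muscles, and a difference of 0.26 ± 0.52 (adjusted p = 0.82). The 95% intervals, -1.40 to 0.90 and -0.85 to 1.37, leave room for changes of either sign. Tumours 1 and 4 also had the highest array medians, 276 and 246, and tumour 2 the lowest, 144. The part of this in the Igf1r signals was not tested.

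Igf2r, the scavenging receptor for IGF-II, was the steadiest of the 10 genes across the tumours. Igf2r 1424112_at had 680, 675, 513.5, 733.5, 672.6 and 686.7 in tumours 1 to 6, against 1109, 923 and 910 in muscles 1 to 3. Every tumour lay below every muscle. The range of this probe set over tumours was 0.50 on the log2 scale. That was smaller than for all but 0.678% of genes, each by its brightest probe set. The difference of -0.56 ± 0.29 was not called (limma adjusted p = 0.24). A second probe set of Igf2r, 1424111_at, differed in the other direction (0.30 ± 0.34, adjusted p = 0.65), with 434 to 835 in tumours and 417 to 690 in muscles, so the direction for the gene is not settled. That probe set ranged 1.93-fold over the tumours, against 1.43-fold for the first. Without the scaling of arrays the first probe set too was higher in tumours (0.28).

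Igfbp4 encodes a binding protein that inhibits IGF action and is cut by the protease PAPP-A. Its signal was higher in tumours on 5 of 6 probe sets, and 2 of these were called. Igfbp4 1423756_s_at had signals of 998, 3751, 3540, 11183, 7962 and 5083 in tumours 1 to 6, against 572, 573 and 448 in muscles 1 to 3. No tumour reached down to the muscles, and tumour 4 was the highest and tumour 1 the lowest. The difference was 2.98 ± 0.58 (log2 ± SE), or 7.88-fold, with a limma adjusted p of 0.0028. That call held under every alternative run with limma on this probe set, with log2 differences of 2.13 to 3.79 and an adjusted p of at most 0.023. Settings with 1 value per gene did not test this probe set by itself. In them Igfbp4 was not called (limma adjusted p = 0.077 by the brightest probe set and 0.057 by the mean).

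Igfbp4 1423757_x_at had 967, 1379, 1665, 5908, 3291 and 1651 in tumours 1 to 6, against 1009, 530 and 597 in muscles 1 to 3, and tumour 1 lay within the muscles. It differed by 1.55 ± 0.50 (limma adjusted p = 0.048). This call was lost in 13 of 20 alternatives, among them quantile normalization (adjusted p = 0.066), median centring (0.086), an offset of 64 (0.053) and no intensity trend (0.069). It was also lost without tumour 3, 4, 5 or 6 (0.063, 0.062, 0.094 and 0.059) or muscle 1, 2 or 3 (0.063, 0.19 and 0.18).

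The brightest Igfbp4 probe sets, 1437405_a_at and 1437406_x_at, gave 1855 to 13632 and 1136 to 14106 in tumours, against 1489 to 3084 and 1049 to 2458 in muscles. They differed by 1.45 ± 0.52 and 1.65 ± 0.62 and were not called (limma adjusted p = 0.079 and 0.091). In each, 5 tumours lay above all muscles and tumour 1 did not. Without tumour 1 both were called, at 1.82 and 2.08 (adjusted p = 0.0025 and 0.0038). Igfbp4 1421992_a_at had 246 to 1799 in tumours against 214 to 318 in muscles (1.03 ± 0.52, adjusted p = 0.23). Igfbp4 1421991_a_at, below its array's median on all 9 arrays, had 22.8 to 232 in tumours against 23.1 to 191 in muscles (-0.32 ± 0.67, adjusted p = 0.83). Tumour 4 was the highest tumour on all 6 probe sets and tumour 1 the lowest on 5. Probe set names ending in _s_at or _x_at mark probes that can bind other transcripts, which applies to both called sets. As the mean of its 6 probe sets, Igfbp4 was not called, nor was any of the other 9 genes (0 of 10 with limma, and 4 of 10 at an unadjusted p under 0.05).

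**Figure D3:**
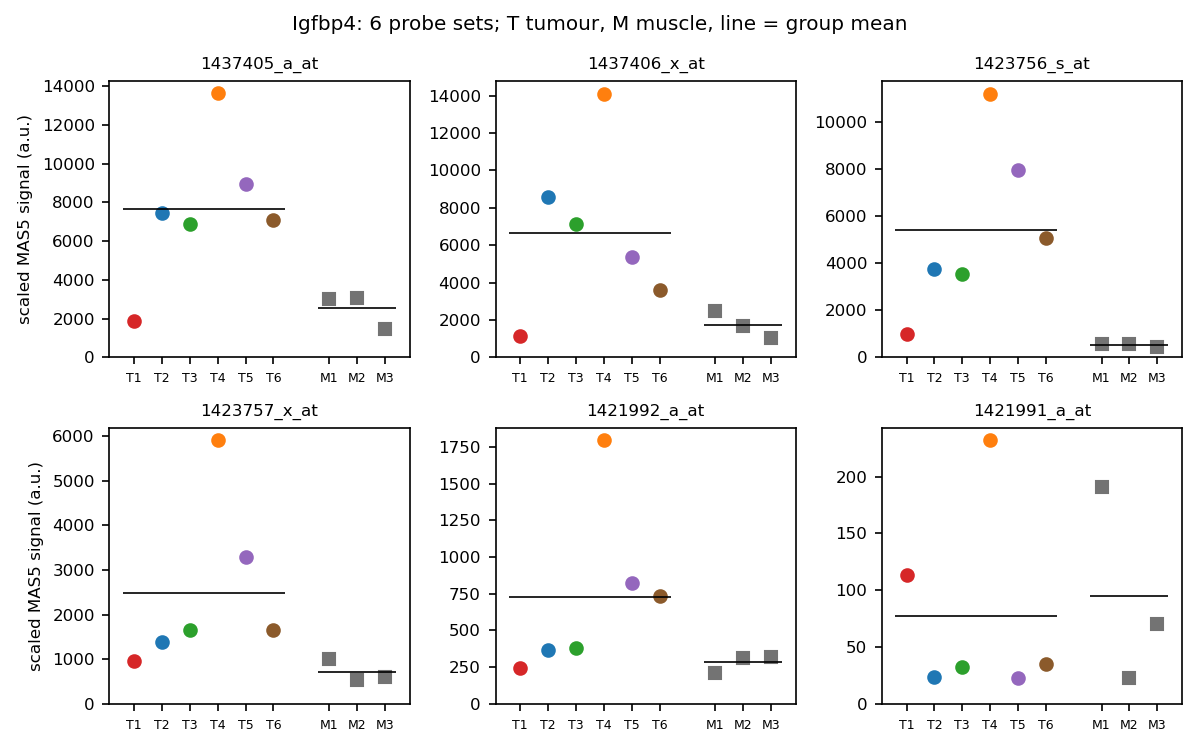
Scaled MAS5 signal (arbitrary units, linear axes starting at 0) of the 6 Igfbp4 probe sets on tumours 1 to 6 and muscles 1 to 3, with lines at the group means. Tumour 4 is the highest tumour in each panel, and in the panel of 1423756_s_at all 6 tumours, from 998 to 11183, lie above the muscles.

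Igfbp3 and Igfbp5 differed most from tumour to tumour. Igfbp3 encodes the main carrier of IGFs in blood, and Igfbp5 a binding protein made by differentiating myoblasts. Igfbp3 1423062_at had 249.7, 5601, 2410, 921, 1786 and 385 in tumours 1 to 6, against 185, 459 and 368 in muscles 1 to 3. Tumours 2 to 5 lay above all muscles, and tumours 1 and 6 lay among them. The highest tumour was 22.4 times the lowest, and 98.0% of genes had a smaller range over the tumours. The difference of 1.81 ± 0.77 was not called (limma adjusted p = 0.14), but was in 4 of 22 alternatives, among them that without tumour 1 (2.23, adjusted p = 0.031).

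Igfbp5 1452114_s_at had 28047, 3033, 2136, 20759, 6570 and 9689 in tumours 1 to 6, against 6481, 6593 and 9614 in muscles 1 to 3. Tumours 1 and 4 stood at 371% and 275% of the muscle mean and tumours 2 and 3 at 40.1% and 28.2%. The group difference was 0.09 ± 0.70 (log2 ± SE, 95% interval -1.41 to 1.58, limma adjusted p = 0.96). The dimmer probe set, Igfbp5 1422313_a_at, repeated this, with 849 and 478 in tumours 1 and 4, 32 and 61 in tumours 2 and 3, and 322 and 325 in tumours 5 and 6, against 151 to 277 in muscles. Its difference was 0.03 ± 0.77 (adjusted p = 0.99). Without tumours 1 and 4 the differences were -0.72 and -0.70, still not called (adjusted p = 0.34 and 0.55). Tumours 1 and 4 were also those with the highest cre signals and the highest array medians, 276 and 246, against 144 to 205.5 on the other tumours, and the part of this in the Igfbp5 signal was not tested.

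Igfbp3 and Igf2 were both highest in tumour 2, next in tumour 3, and lowest in tumour 1, whereas Igfbp5 was highest in tumour 1 and lowest in tumours 2 and 3. Fibroblast markers, 8 genes of collagen and other matrix proteins and of Pdgfra, summed to 60123 and 41403 in tumours 2 and 3, to 10787 to 16585 in the other tumours, and to 31334 to 37643 in muscles. The bright genes Col1a2, Col3a1 and Dcn carried most of these sums, with 21068, 19241 and 12200 in tumour 2. Col1a1, Lum and Mfap5 were also highest in tumour 2. Pdgfra was highest in tumour 6 (3308) and Fbln1 in tumour 4 (995), against 1894 and 368 in tumour 2. Of these 8 genes 1 was called lower and none higher. Their part in the Igf2 and Igfbp3 signals was not tested.

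**Figure D4:**
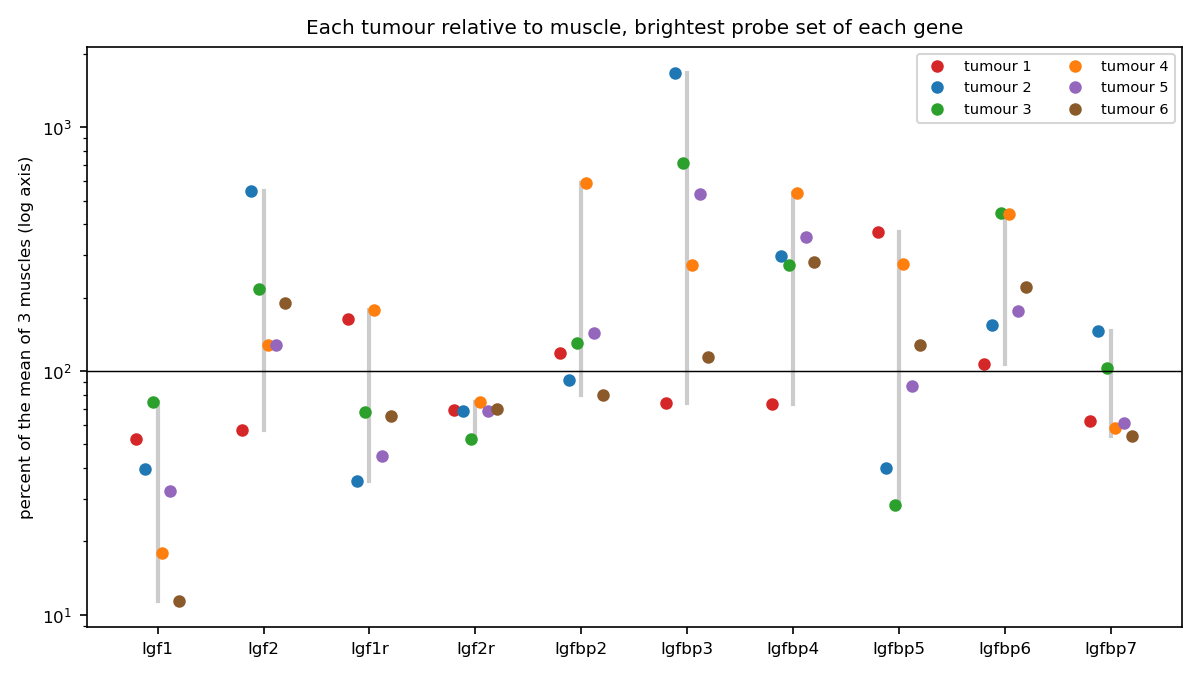
Signal of each tumour as a percentage of the mean of the 3 muscles (log axis, line at 100%) for the brightest probe set of each gene, with 1 coloured point per tumour and grey bars from lowest to highest. Igfbp3 runs from 74.0% to 1661% and Igfbp5 from 28.2% to 371%, while Igf2r stays between 52.4% and 74.8%.

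The remaining binding proteins were not called. Igfbp6, whose product prefers IGF-II over IGF-I, had 312, 454, 1295, 1282, 515 and 646 in tumours 1 to 6 on its only probe set, against 367, 253 and 258 in muscles 1 to 3. Only tumour 1 overlapped the muscles. Igfbp6 1417933_at differed by 1.14 ± 0.46 (95% interval 0.17 to 2.12, limma adjusted p = 0.11), and it was called in 3 of 22 alternatives, among them that without tumour 1 (1.35, adjusted p = 0.032).

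Igfbp2, which encodes a binding protein abundant in fetal tissue, had 1112 in tumour 4 and 149 to 269 in the other tumours, against 95 to 263 in muscles. Igfbp2 1454159_a_at differed by 0.62 ± 0.57 (limma adjusted p = 0.56). Igfbp7 encodes a protein of vessel walls that binds IGFs weakly. Igfbp7 1423584_at had 1284, 2999, 2119, 1201, 1262 and 1121 in tumours 1 to 6, against 1735, 2279 and 2168 in muscles 1 to 3. It was below all muscles in 4 tumours and above them in tumour 2 (-0.40 ± 0.37, adjusted p = 0.56). The other 2 probe sets of Igfbp7 were dim. Igfbp7 1423585_at gave 21.6 to 107 in tumours against 85 to 190.2 in muscles (-1.36 ± 0.49, adjusted p = 0.076), and 1437804_at gave 30.0 to 106 against 45.0 to 85.0 (0.03 ± 0.44, adjusted p = 0.98). Of 7 endothelial markers 1 was lower in tumours, with sums of 1114 to 2546 against 3072 to 3621 in muscles.

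By the brightest probe set of each member, Igfbp3, Igfbp5 and Igf2 had the widest range over tumours. Dimmer probe sets of Igfbp4 ranged more widely than Igf2. For Igfbp3, Igfbp5 and Igf2, the genes with the most similar pattern over the 9 arrays were sought among 12392 others. Likeness was the root mean square difference of log2 signals after centring each gene on its mean, and close matches occur by number of genes alone. Nearest to Igf2 were Gtf2b, Erp44 and Pttg1ip, at 0.25, 0.35 and 0.37. Nearest to Igfbp3 were Lrrk1, Tnfaip8 and Fn1 (fibronectin), at 0.52, 0.59 and 0.62. Nearest to Igfbp5 were Usp27x, Car11 and Tmem38b, at 0.38, 0.39 and 0.41.

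Among genes that act with the IGFs, 9 of 49 measured genes were called, 4 higher and 5 lower. Of all genes, by their brightest probe set, 17.2% were called, 8.4% higher and 8.77% lower. Their median log2 difference was 0.15, against 0.10 over all genes. The lists were chosen with earlier results of these data known, so such shares are not independent tests. The list of IGF carriage and release had 1 of 8 higher and 1 lower, with a median of 0.08. Stc1 (stanniocalcin-1), which inhibits the protease PAPP-A, had 4122, 1075, 396, 3562, 7277 and 11532 in tumours 1 to 6, against 47, 127 and 120.3 in muscles 1 to 3. Every tumour lay above every muscle, and the difference was 4.75 ± 0.82 (limma adjusted p = 0.0013). Igfals, the acid-labile subunit that binds IGF with Igfbp3 in blood, had 15.2 to 72.7 in tumours, median 20.6, against 233 to 283 in muscles (-2.60 ± 0.44, adjusted p = 0.0012). Both calls held under every alternative run with limma that kept their probe sets. Leaving out dim probe sets removed Igfals, which was above its array's median on 3 of 9 arrays. With its probe sets averaged, Stc1 differed by 3.10 (limma adjusted p = 0.0018). Pappa itself, which encodes PAPP-A, was at a low signal and not called (-0.11 ± 0.46, adjusted p = 0.92).

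Of 26 measured receptors, adaptors and members of the PI3 kinase and Akt pathway, 4 were lower and 1 higher, with a median of -0.30. Over all genes 17.2% were called, 8.77% lower and 8.4% higher, with a median of 0.10. Irs1, the insulin receptor substrate that docks to the activated receptors, had 451, 1672, 1155, 1855, 3795 and 2995 in tumours 1 to 6, against 6097, 9214 and 9509 in muscles 1 to 3. It differed by -2.31 ± 0.54 (limma adjusted p = 0.0095), and was lowest in tumour 1. Grb14, an adaptor that inhibits the insulin receptor, had 59 to 199 in tumours, median 108, against 505 to 847 in muscles (-2.34 ± 0.47, adjusted p = 0.0035). Gab1, a docking protein, and Akt2, the Akt kinase of glucose uptake in muscle, differed by -1.17 ± 0.36 and -1.12 ± 0.36 (adjusted p = 0.042 and 0.048). Foxo1, a transcription factor held out of the nucleus by Akt, differed by 1.61 ± 0.52 (adjusted p = 0.049), with 848 to 5145 in tumours and 437 to 916 in muscles. Irs1, Grb14, Gab1 and Akt2 were below all muscles in every tumour. Without the scaling of arrays Irs1, Grb14, Gab1 and Akt2 were not called (0.083, 0.074, 0.67 and 0.73). The call of Irs1 was also lost without muscle 2 or 3 (0.051 and 0.058). Those of Gab1, Akt2 and Foxo1 were lost in 13, 12 and 15 of 22 alternatives, among them leaving out muscle 2 or 3. With probe sets averaged, Foxo1 (0.84) and Gab1 (-0.89) were not called (limma adjusted p = 0.15 for each), while Akt2 was (-1.37, adjusted p = 0.019). The Foxo1 and Akt2 probe sets have names ending in _s_at, so their probes can bind other transcripts.

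On the list of the Igf2 locus, its regulators and Igf2 mRNA-binding proteins, 2 of 7 measured genes were higher and none lower, with a median of 0.85. Over all genes 8.4% were higher and 8.77% lower. The list was chosen with earlier results of these data known, so its share is not an independent test. Hmga2, a fetal chromatin protein that raises Igf2bp2 expression in muscle precursors, had 1394, 4722, 3721, 1796, 5781 and 2984 in tumours 1 to 6, against 123, 114 and 112 in muscles 1 to 3. It differed by 4.52 ± 0.43 (limma adjusted p = 2e-05), without overlap, and held under every alternative run with limma. Igf2bp3, which encodes a fetal protein that binds Igf2 mRNA, had 148 to 490.4 in tumours against 34 to 139 in muscles (1.79 ± 0.51, adjusted p = 0.027). Its call was lost in 8 of 21 alternatives, among them those without tumour 4 or 5 (0.054 and 0.060), without tumours 1 and 4 (0.061), without muscle 2 or 3 (0.085 and 0.19) and with its probe sets averaged (0.26, adjusted p = 0.78). Igf2bp1 was not called (1.05 ± 0.52, adjusted p = 0.22). Of 8 other genes whose proteins carry an IGFBP-type domain, none was called, with a median of 0.54.

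Of 8 myogenic markers 2 were higher and 1 lower in tumours, with sums of 4191 to 9760 against 3082 to 6313 in muscles. None of 5 T cell markers was called, with sums of 212 to 1006 in tumours against 302 to 390 in muscles.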

How the data were processed

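Each array came as deposited signal intensities on a linear scale, computed with MAS5 per the submitters' processing notes. No source used here states a MAS5 version, scaling target or filter. Every array was multiplied to the median of the 9 means trimmed by 2% at each end. Leaving out 64 control probe sets gave 22626 for the test, of which 20380 had 1 gene symbol, 691 several and 1555 none. Only the first were named, so H19 is not analysed here. Array annotation names no genome build, and no gene coordinates are given for it. The number of arrays limits the precision.

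Tests used limma 3.58.1 in R 4.3.3 (lmFit, eBayes with intensity trend, 6 tumours against 3 muscles, no covariates) on log2(signal + 16), with Benjamini-Hochberg adjustment over all probe sets and calls under 0.05. Folds are on that offset scale, which understates changes of dim genes. Genes outside the 10 were represented by their brightest probe set. The fit was tested on simulated data with independent normal noise and the same spread in both groups. That does not cover groups of unequal spread. Named were all probe sets of the 10 genes and called genes of the 4 lists of IGF-related genes (up to 4 per direction). Also named were 3 nearest genes for the 3 members whose brightest probe set ranged most widely. Some uncalled list genes (Pappa, Igf2bp1 and those of the closing observations) were chosen after their values were seen. Members and lists were chosen with earlier results of these data known. Replicate numbers were not taken as pairs. Summaries used Python 3.11.15, numpy 2.4.6, scipy 1.17.1, pandas 2.3.3 and matplotlib 3.10.9.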

Additional observations from a re-analysis of the deposited data

Results flagged for a closer look

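Among the 6 tumours, 1 tumour stood far from the others on 4 of the 23 probe sets by Dixon's test: its gap to the nearest tumour, as a share of the whole log2 range, passed the 95% critical value for 6 samples. Chance flags about 1 group in 20. Tumour 1 was high on Igf1r 1452108_at (ratio 0.841), with a signal of 470 against 92 to 121 in the other tumours. Tumour 3 was low on Igf2r 1424112_at (0.756), at 513.5 against 672.6 to 733.5. Tumour 4 was high on Igfbp2 1454159_a_at (0.716), at 1112 against 149 to 269. Tumour 1 was low on Igfbp4 1437405_a_at (0.658), at 1855 against 6898 to 13632. Tumours 1 and 4 also had the highest array medians, and the part of this in the flags was not tested.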

How the results depend on the processing

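The Igfbp4 1423756_s_at, Stc1, Igfals and Hmga2 calls held under every alternative run except the exact permutation test, whose smallest p of 0.0238 leaves 0 calls after adjustment (at an unadjusted p under 0.05, 7 IGF probe sets, 13 pathway genes and 5814 of all probe sets). Settings with 1 value per gene did not test that Igfbp4 probe set by itself, and leaving out dim probe sets removed that of Igfals. Of the 23 IGF probe sets, 3 were called; the count was 8, all higher, with arrays as deposited, 7 with a variance weight per group, 6 without tumours 1 and 4, 1 of 10 with the brightest probe set per gene, 0 of 10 with all probe sets of a gene averaged (4 at an unadjusted p under 0.05) and 1 with eBayes without trend. Leaving out 1 array gave 1 to 7, with 7 without tumour 1 and 1 without tumour 4, 5 or 6 or any muscle. For the 49 pathway genes this range was 4 to 11, against 9 (5 without tumour 4 or 5, 4 without muscle 2 or 3), and for all probe sets 1700 to 4369, against 3488 (1700 without muscle 3, 1983 without muscle 2). All genes gave 2200 calls by the brightest probe set and 2103 by the mean. The split of higher and lower calls was 1784 and 1704, and 3913 and 583 with arrays as deposited.

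Tumours 1 to 3 and the 3 muscles share replicate numbers, and the labels do not say whether these pair them. Same-numbered deviations correlated at 0.213, 0.164 and -0.021, so they were not treated as pairs, which does not show that they are unpaired; numbers 1 and 2 correlated best with their own number and 3 did not. With the replicate block, 2 IGF probe sets were called (both higher), 4 pathway genes and 2412 of all probe sets. The other tumours have no muscle of their number, so with the block the difference rests on tumours 1 to 3 alone. An effect of pairing cannot be told apart from the loss of those tumours. Igfbp3 gained a call (2.21, adjusted p = 0.024), Igf1 1437401_at (-0.88) and Igfbp4 1423757_x_at (0.92) lost theirs (both 0.24), and so did Gab1 (0.22), Grb14 (0.073), Akt2 (0.12), Foxo1 (0.30) and Igf2bp3 (0.065). Only probe sets not called changed sign. With arrays as deposited, Igf1 1419519_at gave 0.63, Igf2 1415931_at 0.45, Igf1r 1426565_at 0.49, Igf2r 1424112_at 0.28, Igfbp4 1421991_a_at 0.33 and Igfbp7 1423584_at 0.46. With the block, Igf1 1419519_at gave 0.05, Igf2 1415931_at 0.34, Igfbp5 1452114_s_at -0.39, Igfbp5 1422313_a_at -0.66 and Igfbp7 1437804_at -0.06. Quantile normalization gave -0.06 for Igfbp5 1452114_s_at and -0.08 for Igfbp7 1437804_at. Median centring gave -0.02 and -0.08 for the Igfbp5 probe sets and -0.08 for Igfbp7 1437804_at, and an offset of 1 gave -0.05 for Igfbp5 1422313_a_at. Without tumours 1 and 4, Igf1r 1452108_at gave -0.06, the Igfbp5 probe sets -0.72 and -0.70, and Igfbp7 1437804_at -0.28. Leaving out 1 array gave -0.52 to 0.02 for Igf1r 1426565_at, -0.08 to 0.36 for Igf1r 1452108_at, -0.91 to 0.29 for Igfbp4 1421991_a_at, -0.28 to 0.46 and -0.34 to 0.49 for Igfbp5 1452114_s_at and 1422313_a_at, and -0.14 to 0.23 for Igfbp7 1437804_at. The causes were not tested. Probe sets below their array's median, such as Igf1r, set the limit for small differences.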

Other observations

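Several uncalled genes of the same lists ranged at least 10.27-fold over the tumours. Htra1, which encodes a secreted protease that cuts Igfbp5, had signals of 62, 7646, 6530, 309.7, 2346 and 1547 in tumours 1 to 6, against 1425, 1287 and 1398 in muscles 1 to 3 (limma adjusted p = 0.97). Grb10, an imprinted gene for an adaptor that inhibits the insulin and IGF-I receptors, had 439.7, 6928, 4472, 1271, 2532 and 1999.5 in tumours, against 2562, 3125 and 2667 in muscles (adjusted p = 0.78). Both were lowest in tumour 1 and highest in tumours 2 and 3, as Igf2 and Igfbp3 were. Adam12, Ccn4 and Esm1 were also highest in tumour 2 and lowest in tumour 1. Other genes with as wide a range went the other way. Igfbp1, Igfbpl1 and Sos1, at low signals, were highest in tumour 1 and lowest in tumour 2. Dlk1 was highest in tumour 4 and lowest in tumour 2.

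Plagl1, an imprinted gene for a zinc finger protein that binds the Igf2 locus in mice, had another order. Its signals were 487, 259.8, 612, 6995, 3076 and 2840 in tumours 1 to 6, against 1024, 1009 and 639 in muscles (limma adjusted p = 0.74). Tumour 4 was its highest and tumour 2, the tumour with the most Igf2 signal, its lowest. Eif4ebp1, a repressor of translation that mTOR switches off, had 6099 and 2572 in tumours 1 and 4 and 594 to 903 in the other tumours, against 1087 to 1413 in muscles (adjusted p = 0.93). Tumours 1 and 4 also had the highest array medians, and the part of this in the Eif4ebp1 signal was not tested.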
